A study of Mus musculus with 6 samples.

Results

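The 8 genes described here encode the B7 family of immune checkpoint ligands: Cd276, Cd274, Pdcd1lg2, Icosl, Vtcn1, Vsir, Cd80 and Cd86. All 8 were found by name among the 26071 genes of the authors' deposited table, and their counts were taken by gene ID from count files that list 49315 genes. The family was chosen by the measured difference of Cd276 between nanoparticle-positive and nanoparticle-negative cells. The Cd276 values of that comparison are therefore given as a description, and no test result is read from them. The values of the other 7 members did not enter the choice.

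Messenger RNA was sequenced from tumour endothelium. The tumours were grown from 4T1, a mouse breast cancer cell line. The NP+ group is the nanoparticle-positive fraction and the NP- group the nanoparticle-negative fraction of the same 3 tumours (numbered MET-106, MET-107, MET-108), so each group has 3 libraries. Where 3 values are given for a fraction, they run in the order of those tumours. All tumours came from female Balb/c mice that received 4T1 cells in the inguinal mammary fat pad at 8 weeks of age, and they were taken after 2 weeks, at 10 weeks of age. Every mouse had been given 1E12 gold nanoparticles of 50 nm, coated with 5 kDa methoxy-polyethylene glycol and the dye Cy5, through the tail vein 1 hour before harvest. NP- cells therefore come from particle-treated animals too, and an untreated group was not analysed here. Cells were depleted of CD45 (a leukocyte surface protein) and enriched for CD31 (an endothelial surface protein) on magnetic columns, and flow cytometry then parted the 2 fractions. The question is how endothelial cells with particles differ in RNA from those without.

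B7 family proteins are membrane proteins with immunoglobulin domains that meet receptors of the CD28 family on T cells. CD80 and CD86 deliver the classical co-stimulatory signal through CD28 and are bound more tightly by the inhibitory receptor CTLA-4. ICOS ligand stimulates through ICOS, and the products of Cd274 (PD-L1) and Pdcd1lg2 (PD-L2) inhibit through PD-1. The products of Cd276 (B7-H3), Vtcn1 (B7-H4) and Vsir (VISTA) are described mainly as inhibitory, and their receptors are less settled. CD276 is also known as a surface protein of tumour blood vessels.

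The libraries held 20856410 to 58089600 gene counts. Endothelial markers dominated both fractions. The summed level of 10 endothelial marker genes was 9280 to 11830 CPM (gene counts scaled to a common library total) in NP+ libraries and 6025 to 8719 CPM in NP- libraries. The NP- libraries stood further apart from each other than the NP+ libraries. Pairwise correlations of log2 levels were 0.989 to 0.993 among NP+ and 0.913 to 0.933 among NP- libraries. In the NP- library of MET-106 the 7 fibroblast markers summed to 1834 CPM and the 8 epithelial and tumour cell markers to 622 CPM. Those sums were 10.7 to 22.8 CPM and 8.24 to 13.7 CPM in the NP+ libraries, and 54.2 to 71.8 CPM and 18.03 to 32.9 CPM in the other 2 NP- libraries. In the NP- library of MET-107 the 7 lymphatic endothelial markers summed to 1761 CPM, against 399 to 457 CPM in the NP+ libraries and 255 and 733 CPM in the NP- libraries of MET-106 and MET-108. Because each library is a bulk sample, fewer cells of a type and less RNA per cell cannot be told apart in any result below.

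**Figure D1:**
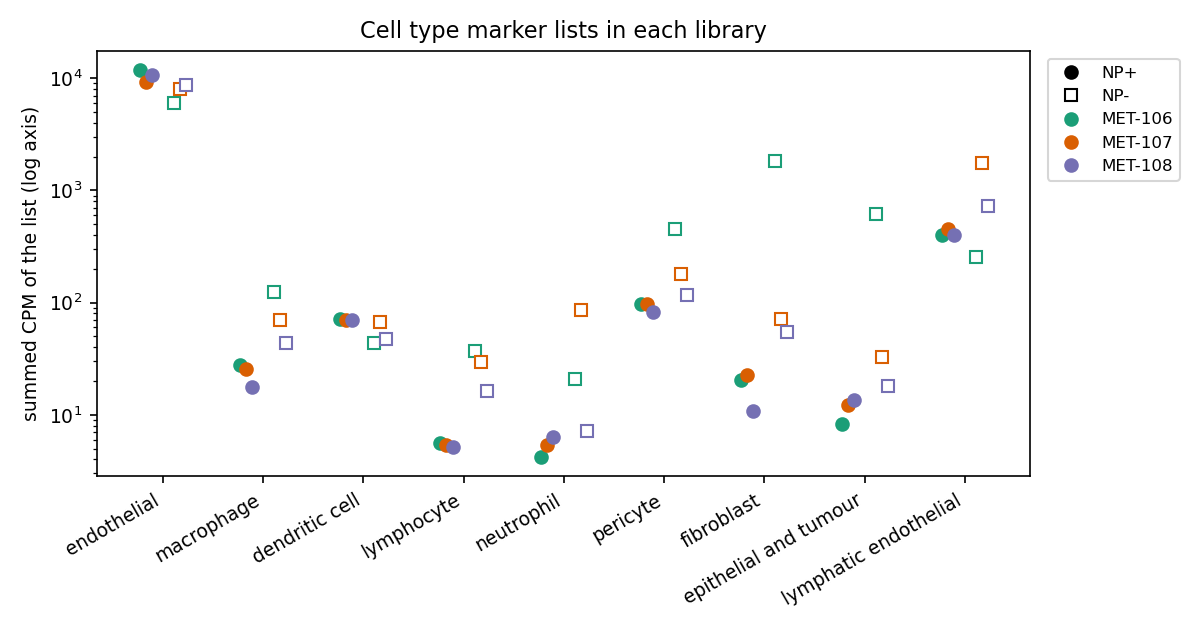
Summed CPM of 9 cell type marker lists (log axis) in each library, NP+ libraries as filled circles and NP- libraries as open squares, coloured by tumour. The fibroblast and the epithelial and tumour lists are highest in the NP- library of MET-106 (1834 and 622 CPM), and the lymphatic list in the NP- library of MET-107 (1761 CPM).

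Within the family, Cd276, Vsir and Cd274 made up nearly all of the transcripts in both fractions. To compare genes of different length, CPM were divided by the exon length of the gene in kilobases (CPM per kb). In NP+ cells Cd276 stood at 106.4 ± 9.55 CPM per kb, Vsir at 21.4 ± 2.31, Cd274 at 7.98 ± 1.04 and Icosl at 1.17 ± 0.238 CPM per kb (SD, n = 3). These 4 followed each other without overlap of their libraries. Cd80 (0.243 ± 0.0218), Cd86 (0.239 ± 0.0978) and Pdcd1lg2 (0.219 ± 0.112 CPM per kb) overlapped with each other, and Vtcn1 was lowest (0.0295 ± 0.0359 CPM per kb). In NP- cells the order began with the same 5 genes, Cd276 at 23.6 ± 5.47, Vsir at 15.6 ± 8.66, Cd274 at 7.56 ± 2.59, Icosl at 1.84 ± 0.875 and Cd80 at 0.565 ± 0.158 CPM per kb. There, however, the libraries of Cd276 overlapped with those of Vsir, and those of Vsir with those of Cd274. Below Cd80, Pdcd1lg2 (0.483 ± 0.432), Cd86 (0.260 ± 0.0635) and Vtcn1 (0.180 ± 0.168 CPM per kb) came last, and from Cd80 on each overlapped with the next. By level per length, Cd276 lay above 97.4% of the 23989 tested genes in NP+ cells and above 90.6% in NP- cells, and Cd274 above 75.7% and 77.4%.

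A level that can be set beside the low members comes from 1405 olfactory receptor genes, which endothelial cells are not known to use. Their summed counts gave 0.0327, 0.100 and 0.0583 CPM per kb in the NP+ libraries, against 0.0872, 0.422 and 0.337 CPM per kb in the NP- libraries. The olfactory level was thus higher in the NP- than in the NP+ library of each tumour. Cd276, Vsir and Cd274 stood at least 16.3 times above it in every library, and Icosl at 5.58 to 42.9 times. Cd80, Cd86 and Pdcd1lg2 stood at 1.57 to 8.16 times the olfactory level in NP+ libraries. In the NP- library of MET-107, Pdcd1lg2 and Cd86 were below it, at 0.599 and 0.457 times, and in that of MET-108 Cd86 was at 0.792 times. Vtcn1 was above it in the NP- library of MET-106 alone (2.37 times).

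**Figure D2:**
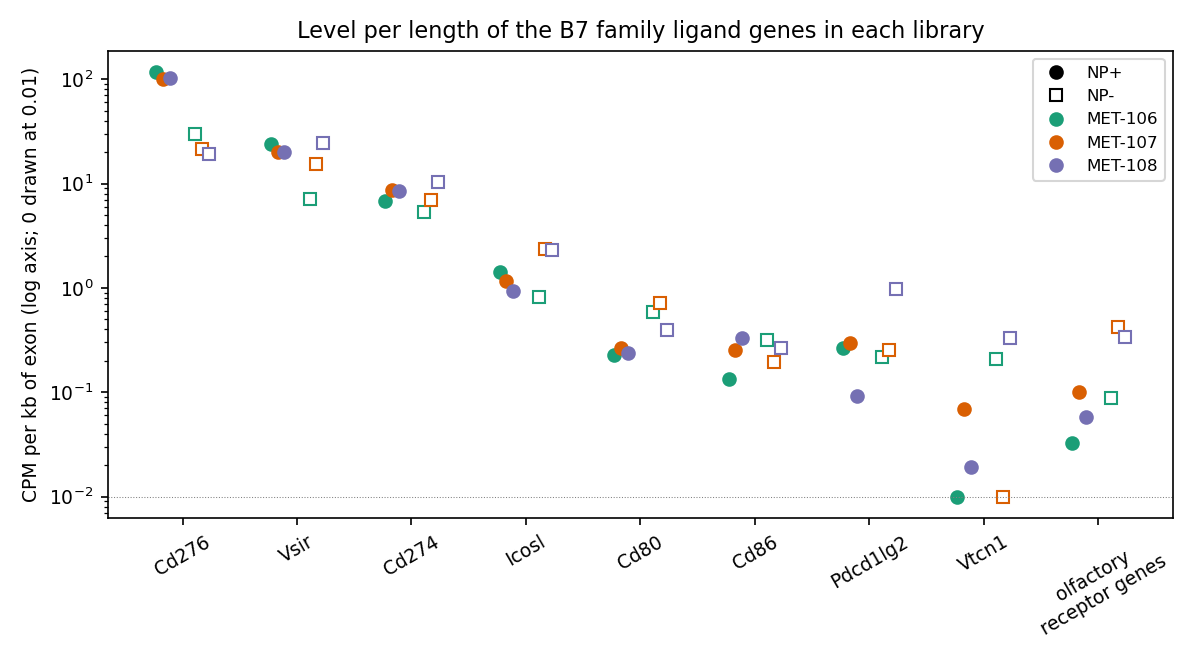
CPM per kb of exon (log axis, 0 drawn at 0.01) of the 8 members and of 1405 olfactory receptor genes summed, with NP+ libraries as filled circles left of NP- libraries as open squares, coloured by tumour. Cd276, Vsir, Cd274 and Icosl lie above the olfactory level in every library, whereas Cd80, Cd86, Pdcd1lg2 and Vtcn1 reach into its range.

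Cd276, whose product B7-H3 is a membrane ligand of the family, had 429, 365 and 373 CPM in the NP+ libraries, against 109, 79.2 and 70.6 CPM in the NP- libraries. The NP+ libraries were all higher than the NP- libraries, a pattern that 13.3% of all tested genes showed in this direction. The lowest NP+ value was over 3 times the highest NP- value. These levels rest on 14849 to 20066 counts per NP+ library and 1906 to 5207 counts per NP- library. Within tumours the NP+ level was 3.95 times the NP- level in MET-106, 4.61 times in MET-107 and 5.28 times in MET-108. The means of 389 ± 34.9 CPM in NP+ and 86.2 ± 20.0 CPM in NP- (SD, n = 3 each) differed 4.51-fold, and the fitted log2 fold change of NP+ over NP- was 2.17 (SE 0.21). The fold lay between 4.14 and 5.19 when any one library was left out, with 5.19 once the NP- value of MET-106 was dropped. Relative to the summed endothelial markers of each library, Cd276 stood at 36.3, 39.4 and 34.7 per 1000 in NP+ and at 18.05, 9.87 and 8.10 per 1000 in NP- libraries, a ratio of the means of 3.06. The NP- library of MET-106 had both the highest Cd276 level of the NP- group and the highest fibroblast and epithelial marker sums, and the part of those cells in its Cd276 level was not tested. On GRCm38, Cd276 (ENSMUSG00000035914) is a protein-coding gene on the minus strand of chromosome 9, from 58524298 to 58555437. It shares 416 exon bases with Gm10657, a gene on the opposite strand that had 12 to 150 counts per library, and since the kit does not mark strand, reads from those bases cannot be assigned to one of the genes.

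The promoters of the 3 abundant members are shown because their transcripts make up the family's level in these cells. Each window runs from 250 bases before to 50 bases after the RefSeq start of the gene (GRCm38.p6). It is written 5' to 3' on the strand of the gene, in lower case, with capitals marking GC boxes (GGGCGG on either strand).
Cd276, chr9:58554984-58555283, minus strand: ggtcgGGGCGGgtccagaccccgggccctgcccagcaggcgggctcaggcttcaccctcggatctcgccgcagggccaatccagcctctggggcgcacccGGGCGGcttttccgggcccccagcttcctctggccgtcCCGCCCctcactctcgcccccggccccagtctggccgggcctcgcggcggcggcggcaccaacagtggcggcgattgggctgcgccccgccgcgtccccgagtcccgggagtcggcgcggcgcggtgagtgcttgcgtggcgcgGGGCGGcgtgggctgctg
Vsir, chr10:60346601-60346900, plus strand: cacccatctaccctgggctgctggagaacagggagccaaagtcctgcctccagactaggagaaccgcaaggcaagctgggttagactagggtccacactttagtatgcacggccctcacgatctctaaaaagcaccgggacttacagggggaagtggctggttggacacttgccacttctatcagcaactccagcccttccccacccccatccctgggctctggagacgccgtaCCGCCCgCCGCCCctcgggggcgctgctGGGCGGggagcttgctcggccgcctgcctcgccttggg
Cd274, chr19:29367188-29367487, plus strand: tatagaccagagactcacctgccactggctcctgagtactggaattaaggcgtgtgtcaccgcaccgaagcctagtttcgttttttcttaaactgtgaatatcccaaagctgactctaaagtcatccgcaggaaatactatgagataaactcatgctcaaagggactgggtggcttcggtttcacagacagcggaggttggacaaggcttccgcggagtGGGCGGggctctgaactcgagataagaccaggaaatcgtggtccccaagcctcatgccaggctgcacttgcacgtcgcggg
The Cd276 window holds 4 GC boxes, the Vsir window 3 and the Cd274 window 1, and 35.66% of 32851 RefSeq promoter windows of this length hold at least 1. The Cd276 window has 39 CG dinucleotides and a G and C content of 78.3%, more CG than 95.6% of all windows, where the median is 7. The Vsir and Cd274 windows have 15 each. Among the low members, the Icosl window has 26, that of Vtcn1 5, and those of Pdcd1lg2 and Cd80 3 each. The order by CG content was thus not the order by level. The RefSeq start used for Cd276 lies 404 bases inside the gene as the count files delimit it. Both strands were also searched for 7 other motifs. These were TATAAA, then CCAAT, then the AP-1 motif TGACTCA, then the E-box CACGTG, and the interferon-gamma (GAS, TTCNNNGAA), IRF pair and NF-kappaB motifs by name, which 8.3%, 3.44% and 1.63% of all windows hold. The Cd276 window holds CCAAT 2 times, as does the Icosl window, and 37.41% of all windows hold it. None of the 7 is in the Vsir or Cd274 window. The Vtcn1 window holds the AP-1 motif (5.2% of all windows do), and the Cd80 window holds TATAAA (13.62%). Windows were found for 7 of the 8 members, all except Cd86.

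Vsir encodes VISTA, an inhibitory ligand known from myeloid cells and T cells. It had 121, 100 and 101 CPM in the NP+ libraries, against 35.7, 76.5 and 122 CPM in the NP- libraries. The NP+ libraries were close to each other, and of the NP- libraries 2 lay below them and 1 above. The NP+ level was 3.38 times the NP- level in MET-106, 1.31 times in MET-107 and 0.824 times in MET-108. The log2 fold change was 0.46 (SE 0.38, edgeR quasi-likelihood adjusted p = 0.462), with a 95% interval from -0.40 to 1.31. The lowest NP- value is that of MET-106, the library rich in fibroblast and epithelial markers. Without it the NP- mean was 99.5 CPM and the ratio of the means 1.08. Without the NP- library of MET-108 the ratio was 1.91, and the fitted log2 fold change 0.97 (adjusted p = 0.127). The ratio of Cd276 to Vsir per length was 4.87, 4.99 and 5.06 in the NP+ libraries and 4.18, 1.42 and 0.790 in the NP- libraries. It was nearly constant over the NP+ libraries, and the NP- library of MET-106 came closest to them. This ratio, too, holds the Cd276 difference that chose the family. Vsir (ENSMUSG00000020101) lies on the plus strand of chromosome 10 from 60346851 to 60372684 and overlaps Cdh23, a cadherin gene on the opposite strand, without shared exon bases.

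Vtcn1, which encodes the inhibitory ligand B7-H4, was near 0 throughout. It had 0, 10 and 2 counts in the NP+ libraries, against 26, 0 and 26 counts in the NP- libraries. A count of 0 allows up to 0.0824 CPM in the NP+ library of MET-106 and 0.125 CPM in the NP- library of MET-107, where 3 counts are taken as the limit of counting error alone. Vtcn1 was the only member that did not pass the filter on low counts, and it was not tested. It lies on the plus strand of chromosome 3 from 100825459 to 100896922 (ENSMUSG00000051076).

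For both ligands of PD-1 the difference between the fractions lay within the spread of the libraries. Cd274, the PD-L1 gene, had 24.6, 31.5 and 30.7 CPM in the NP+ libraries, against 19.4, 24.9 and 37.7 CPM in the NP- libraries. The NP- libraries spanned the whole NP+ range, and NP+ was higher in 2 of 3 tumours. The log2 fold change was 0.08 (SE 0.28, edgeR adjusted p = 0.871), and its 95% interval from -0.56 to 0.72 corresponds to folds between 0.679 and 1.65. The sign turned under upper-quartile (-0.18) and total-count (-0.21) scaling. The ratio of Cd276 to Cd274 per length was 17.3, 11.5 and 12.03 in the NP+ libraries and 5.54, 3.15 and 1.85 in the NP- libraries. These values do not overlap, but they hold the Cd276 difference that chose the family, so nothing further is read from them.

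Cd274 (ENSMUSG00000016496) lies on the plus strand of chromosome 19 from 29367455 to 29388095. Pdcd1lg2 (ENSMUSG00000016498), the PD-L2 gene, lies 22.8 kb downstream of Cd274 on chromosome 19 and was far lower in both fractions. It had 16, 27 and 6 counts in the NP+ libraries, against 17, 10 and 48 counts in the NP- libraries. In level these are 0.439, 0.492 and 0.151 CPM in NP+ libraries, against 0.355, 0.416 and 1.61 CPM in NP- libraries. The NP- library of MET-108 was high and its NP+ partner low, while the other 4 libraries lay close together. The log2 fold change of -1.13 had an SE of 1.005 (edgeR adjusted p = 0.496). Without the NP- library of MET-108 the fitted value was -0.07, and the ratio of the means was 0.935 in place of 0.453.

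The co-stimulatory ligands were low. Their genes are Icosl (ENSMUSG00000000732) on chromosome 10 from 78069360 to 78079525, and on chromosome 16 Cd86 (ENSMUSG00000022901) from 36603869 to 36666081 and Cd80 (ENSMUSG00000075122) from 38458933 to 38486933. Icosl, the gene of the ICOS ligand, had 3.87, 3.22 and 2.56 CPM in the NP+ libraries, against 2.28, 6.49 and 6.42 CPM in the NP- libraries. NP+ was higher in MET-106, and in MET-107 and MET-108 it was at 0.497 and 0.398 times the NP- level. The log2 fold change was -0.65 (SE 0.54, edgeR adjusted p = 0.464, 95% interval from -1.87 to 0.57). Without the NP- library of MET-106 it was -0.95 (adjusted p = 0.157).

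Cd80 had 0.384, 0.455 and 0.401 CPM in the NP+ libraries, against 1.00, 1.21 and 0.673 CPM in the NP- libraries, from 14 to 25 and 20 to 48 counts. All NP+ libraries were below all NP- libraries, a pattern that 15.6% of all tested genes showed in this direction. The log2 fold change was -1.21 (SE 0.81, edgeR adjusted p = 0.369, 95% interval from -3.04 to 0.62), so the difference did not pass the test at this depth. The olfactory level was also lower in every NP+ library than in its NP- partner, and its part in the Cd80 difference was not tested. Macrophages carry CD80 and CD86. The 10 macrophage markers summed to 28.0, 25.8 and 17.7 CPM in NP+ libraries, against 124, 69.4 and 43.5 CPM in NP- libraries. Lyz2, singled out after its values were seen, averaged 7.11 of the mean sum of 23.8 CPM in NP+. In NP- it averaged 45.4 of 78.9 CPM, but had only 6.29 CPM in the library of MET-108. The estimates of 8 of the 10 were below 0 (59.2% of all tested genes), and those of C1qa (1.185) and C1qb (0.18) above 0. At an unadjusted p under 0.05, 5 of 10 were lower and 0 higher (15.4% and 8.01% of all genes). After adjustment 0 passed in either direction by edgeR, limma-voom or the block on tumour. DESeq2 called 2 lower (9.81% of all genes). None of the 10 was at 0 in any library. Their part in the Cd80 values was not tested.

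Cd86 had 0.494, 0.929 and 1.20 CPM in the NP+ libraries, against 1.17, 0.707 and 0.976 CPM in the NP- libraries. The NP- values lay within the NP+ range, and NP+ was higher in 2 of 3 tumours. The log2 fold change was -0.12 (SE 0.78, edgeR adjusted p = 0.932, 95% interval from -1.88 to 1.64). The sum of 8 dendritic cell markers was 69.7 to 70.8 CPM in NP+, against 43.9 to 66.7 CPM in NP- libraries, 47.4 to 50.5 and 20.8 to 31.6 CPM of which came from Zbtb46, a transcription factor gene that endothelial cells also express and that was singled out after its values were seen. Most of that list went the other way from its sum. The estimates of 6 of the 8 were below 0 (59.2% of all tested genes), with a list median of -1.29 (whole table -0.29). At an unadjusted p under 0.05, 2 were lower and 1 higher (15.4% and 8.01% of all tested genes). None of the 8 passed by edgeR after adjustment. DESeq2 called 1 higher and 2 lower (3.96% and 9.81% of all tested genes).

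**Figure D3:**
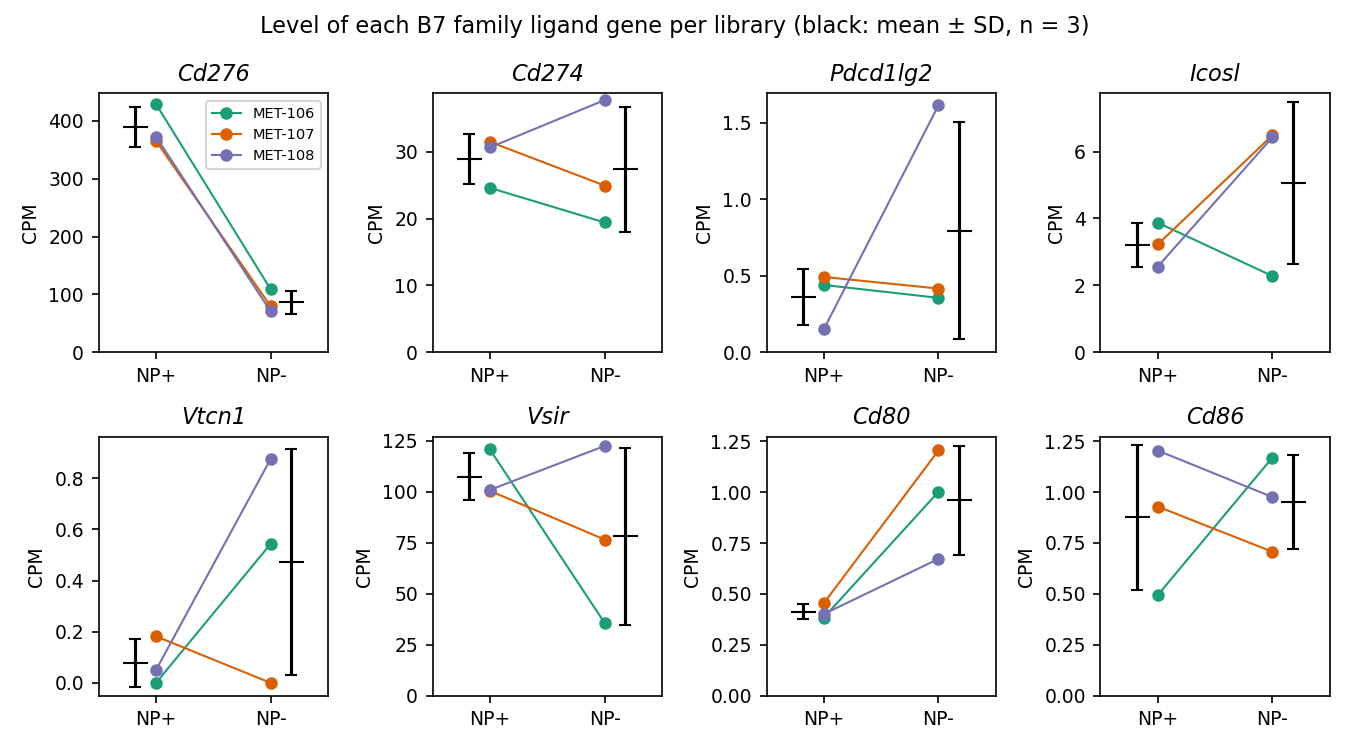
CPM of each member in the 6 libraries, NP+ on the left and NP- on the right of each panel, with lines joining the 2 libraries of a tumour and black bars for the mean ± SD (n = 3). The Cd276 libraries do not overlap (365 to 429 CPM in NP+, 70.6 to 109 CPM in NP-), and Cd80 shows the opposite order at 0.384 to 0.455 CPM in NP+, against 0.673 to 1.21 CPM in NP-. Of all tested genes 13.3% keep apart in the direction of Cd276 and 15.6% in that of Cd80.

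Leaving Cd276 aside, 0 of the other 6 tested members passed an adjusted p under 0.05 in edgeR's quasi-likelihood test. Of all 23989 genes tested, 3 were higher in NP+ (0.0125%) and 4 lower (0.0167%), 0.0292% in all. That split became 3 higher and 18 lower by upper quartile, 2 and 9 by total count, and 2 and 13 when tumour was a block. None of those 6 had an unadjusted p under 0.05 either, which 8.01% of all genes had in the higher and 15.4% in the lower direction, 23.4% in all. DESeq2, limma-voom and the blocked fit also called none of those 6. Of all genes DESeq2 called 3.96% higher and 9.81% lower, limma-voom 0.05% and 0.025%, and the blocked fit 0.00834% and 0.0542%. In the authors' deposited table, whose log2 fold changes run NP- over NP+, the value was -2.24 for Cd276, and the lowest adjusted p among the other members was 0.306, for Vsir. With Cd276 included, the estimate was above 0 for 3 of the 7 tested members and below 0 for 4, against 40.8% and 59.2% of all tested genes. The median log2 fold change of these 7 was -0.12 against -0.29 over the whole table (TMM), -0.35 against -0.53 by upper quartile and -0.40 against -0.59 by total count. The order turned in the blocked fit, at -0.17 against -0.15, and in limma-voom, at -0.22 against -0.11.

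Added up per length, the 8 members stood at 138 ± 10.9 CPM per kb in NP+ and 50.0 ± 7.42 CPM per kb in NP- (SD, n = 3 each). Without Cd276 the sums were 31.3 ± 1.43 and 26.5 ± 12.3 CPM per kb. The share of Cd276 in the sum was 78.1, 76.5 and 77.1% in the NP+ libraries, against 67.0, 45.8 and 33.0% in the NP- libraries. Vsir had 15.2 to 16.0% in NP+ and 16.0 to 41.8% in NP-, and Cd274 had 4.52 to 6.65% and 12.1 to 17.8%. The make-up was nearly the same in the 3 NP+ libraries and varied between the NP- libraries, where the order of tumours for Cd276 was the reverse of that for Vsir and Cd274. These shares follow in part from the Cd276 levels that chose the family.

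**Figure D4:**
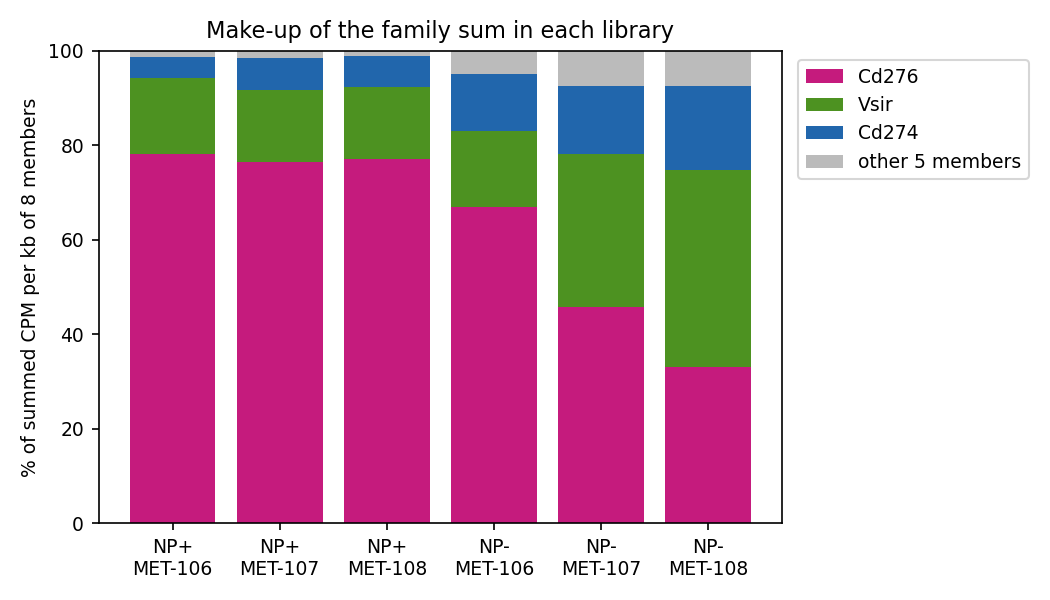
Share (%) of Cd276, Vsir, Cd274 and the other 5 members in the summed CPM per kb of the family, 1 bar per library, NP+ libraries left of NP- libraries. Cd276 takes 76.5 to 78.1% of the sum in NP+ and 33.0 to 67.0% in NP-.

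Across the 6 libraries, the genes whose profile was most like that of Cd276 were Tcf3, an E protein transcription factor gene, Bmp2, a bone morphogenetic protein gene, Snx9, a sorting nexin gene of endocytosis, Sipa1, a Rap GTPase-activating protein gene, and Hlx, a homeobox gene. Likeness was the root mean square distance between log2(CPM + 1) profiles, each centred on its own mean, over 6 libraries and 10826 genes with a mean of at least 5 CPM. The distances were 0.18, 0.23, 0.26, 0.27 and 0.27 on the log2 scale. Tcf3 stood at 116, 104 and 98.0 CPM in the NP+ libraries, against 39.0, 27.6 and 20.1 CPM in the NP- libraries. Bmp2 stood at 109, 106.2 and 88.9 CPM in NP+ and at 36.6, 26.8 and 15.4 CPM in NP- libraries. Both had, like Cd276, their highest NP- value in MET-106 and their lowest in MET-108. Of the other members, Vsir was at a distance of 1.05 (place 6313 of 10826) and Cd274 at 1.14 (place 7969). A gene picked for its likeness to Cd276 shares the difference of Cd276 by that choice.

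The 8 counter-receptor genes, whose products bind B7 ligands or are proposed to bind them, were low in both fractions. None passed in either direction by edgeR, limma-voom or the block on tumour. DESeq2 called 2 lower (9.81% of all tested genes). At an unadjusted p under 0.05, 0 were higher and 4 lower, against 8.01% and 15.4% of all tested genes. Their summed level was 9.58 to 11.1 CPM in NP+ libraries against 15.4, 39.8 and 12.4 CPM in NP- libraries. The largest part of the NP+ sums was Rgmb, at 4.70, 5.94 and 3.99 CPM. It had 4.57, 7.07 and 1.72 CPM in NP- libraries (log2 fold change 0.13, SE 0.56, edgeR adjusted p = 0.895). The list median on the log2 scale was -1.65 (whole table -0.29). Per length, Igsf11 averaged 1.006 times the olfactory level in NP+ and 1.68 times in NP-, and Treml2, a proposed Cd276 receptor gene, 0.873 and 0.979 times. That level was itself higher in NP- libraries, and its part in these values was not tested. Cd28, the receptor of CD80 and CD86, had 0.879, 1.46 and 1.81 CPM in NP+ libraries, against 1.44, 11.7 and 4.00 CPM in NP- libraries (log2 fold change -2.04, SE 0.78, edgeR adjusted p = 0.176). Icos, the receptor of the Icosl product, had 0.552 to 0.604 CPM in NP+, against 0.856 to 4.41 CPM in NP- libraries (adjusted p = 0.183). Igsf11, which encodes a proposed VISTA ligand, had 0.110, 0.419 and 0.351 CPM in NP+ libraries, against 0.522, 5.86 and 0.908 CPM in NP- libraries (adjusted p = 0.170). Selplg, the gene of the selectin ligand PSGL-1 that also binds VISTA, had 1.42 to 2.47 CPM in NP+, against 3.60 to 5.89 CPM in NP- libraries (log2 fold change -1.27, SE 0.51, adjusted p = 0.185). Of these 4, 3 were highest in the NP- library of MET-107. Lymphocyte markers had a sum of 5.19 to 5.57 CPM in NP+, against 16.3 to 37.3 CPM in NP-. Of the 9 markers, 3 of the 7 tested were lower at an unadjusted p under 0.05 (15.4% of all tested genes). The part of lymphocytes in the receptor values was not tested.

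Among 10 other inhibitory ligands and partners, 0 were higher and 1 was lower by edgeR, against 0.0125% and 0.0167% of all tested genes. The one that fell was Cd24a, a surface glycoprotein gene whose product is read by Siglec receptors of phagocytes, at 6.73, 7.43 and 9.08 CPM in the NP+ libraries, against 44.7, 35.8 and 35.1 CPM in the NP- libraries. All NP+ libraries were below all NP- libraries, as for 15.6% of all tested genes, and the log2 fold change was -2.31 (SE 0.25, edgeR adjusted p = 0.0379). The blocked fit gave an adjusted p of 0.0588, and the call was also lost without any one NP+ library or without the NP- library of MET-107. Cd24a had stood among the few called genes of these data before the list was drawn up, so its pass is not an independent result. Cd47, whose product signals against phagocytosis, had 575, 540 and 532 CPM in NP+ libraries, against 450, 322 and 163 CPM in NP- libraries. The NP+ libraries were all higher, as for 13.3% of all tested genes, but with a log2 fold change of 0.82 (SE 0.32) the adjusted p was 0.181. Ceacam1, an adhesion and inhibitory receptor gene, had 86.4 to 102 CPM in NP+, against 107.5 to 166 CPM in NP- libraries (adjusted p = 0.210). Fgl1, the gene of a LAG-3 ligand, had 0.220 to 0.401 CPM in NP+, against 1.08 to 2.16 CPM in NP- libraries (adjusted p = 0.167). Per length, Fgl1 averaged 1.16 times the olfactory level in NP+ and 1.60 times in NP-. The olfactory level was itself higher in NP- libraries, and its part in the Fgl1 values was not tested. The median of the 10 was 0.19 with TMM and -0.11 with total-count scaling, against -0.29 and -0.59 over the whole table. With only genes of at least 5 CPM in 3 libraries kept, the median over all genes was -0.019 (TMM).

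Of 7 TNF family co-stimulators 5 were tested, and none passed by edgeR or limma-voom. DESeq2 called 1 higher and 1 lower, against 3.96% and 9.81% of all tested genes. The counts were the same at an unadjusted p under 0.05, against 8.01% and 15.4%. Cd40, a co-stimulatory receptor gene also present on endothelium, had 54.7, 60.3 and 41.2 CPM in NP+ libraries, against 23.6, 22.8 and 34.5 CPM in NP- libraries, a log2 fold change of 0.95 (SE 0.25, edgeR adjusted p = 0.125). Tnfsf9, the 4-1BB ligand gene, had 1.32, 1.00 and 0.602 CPM in NP+ libraries, against 13.4, 6.78 and 2.36 CPM in NP- libraries (log2 fold change -2.95, SE 0.71, adjusted p = 0.117). Both sets of libraries kept apart without overlap, in opposite directions. Of all tested genes 13.3% did so with NP+ higher and 15.6% with NP+ lower. Tnfsf18, the GITR ligand gene, had 0.853 to 1.21 CPM in NP+, against 1.13 to 4.16 CPM in NP- libraries (adjusted p = 0.217). Tnfsf15 had 0.276 to 0.546 and 0.439 to 2.33 CPM (adjusted p = 0.283).

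Butyrophilins and their relatives share the immunoglobulin fold of B7 proteins. Of 10 genes 8 were tested and none passed by edgeR or limma-voom. DESeq2 called 0 higher and 2 lower, against 3.96% and 9.81% of all tested genes. At an unadjusted p under 0.05, 0 were higher and 2 lower, against 8.01% and 15.4%. Btnl9, a member known from capillary and arterial endothelium, was the abundant one, with 30.6, 40.2 and 38.3 CPM in NP+ libraries, against 54.7, 63.2 and 38.8 CPM in NP- libraries (log2 fold change -0.52, SE 0.23, edgeR adjusted p = 0.221). Mog (0.110 to 0.601 CPM in NP+, against 0.564 to 5.15 CPM in NP-, adjusted p = 0.145), Btnl2 (0 to 0.255 and 0.585 to 2.46 CPM, 0.152) and Ermap (0.961 to 1.79 and 0.731 to 5.48 CPM, 0.322) were low. The mean level of Btnl2 per length was 0.550 times the olfactory level in NP+ and 2.47 times in NP-.

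The list of Cd274 regulators holds 12 genes, those of interferon-gamma, JAK-STAT and NF-kappaB signalling and the PD-L1 stabilisers Cmtm6 and Cmtm4. None passed by edgeR, limma-voom or the block on tumour. DESeq2 called 1 higher (3.96% of all tested genes). At an unadjusted p under 0.05, 2 were higher and 0 lower (8.01% and 15.4% of all tested genes). Jak1, a kinase gene of interferon receptors, had 1074, 834 and 898 CPM in NP+ libraries, against 615, 566 and 356 CPM in NP- libraries (log2 fold change 0.87, SE 0.23, edgeR adjusted p = 0.127). Ifngr2, an interferon-gamma receptor subunit gene, had 152, 132 and 123 CPM in NP+ libraries, against 106.8, 25.8 and 17.5 CPM in NP- libraries (log2 fold change 1.44, SE 0.58, adjusted p = 0.191). Its NP- library of MET-106 stood near the NP+ libraries and the other 2 far below. Ifngr1 had 372 to 505 CPM in NP+, against 247 to 402 CPM in NP- libraries (adjusted p = 0.312), and Cmtm4 had 3.14 to 3.79 and 4.61 to 7.54 CPM (adjusted p = 0.266). The estimates of 11 of the 12 were above 0 with TMM, against 40.8% of all tested genes. That count depended on the scaling. By upper quartile the estimates of Jak2 (-0.03), Irf1 (-0.24), Irf2 (-0.11), Nfkb1 (-0.015) and Cmtm6 (-0.045) were also below 0. The list median was 0.25 (TMM), -0.0028 (upper quartile) or -0.06 (total count). Over the whole table the medians were -0.29, -0.53 and -0.59. Among genes with at least 5 CPM in 3 libraries the median was -0.019 (TMM).

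**Figure D5:**
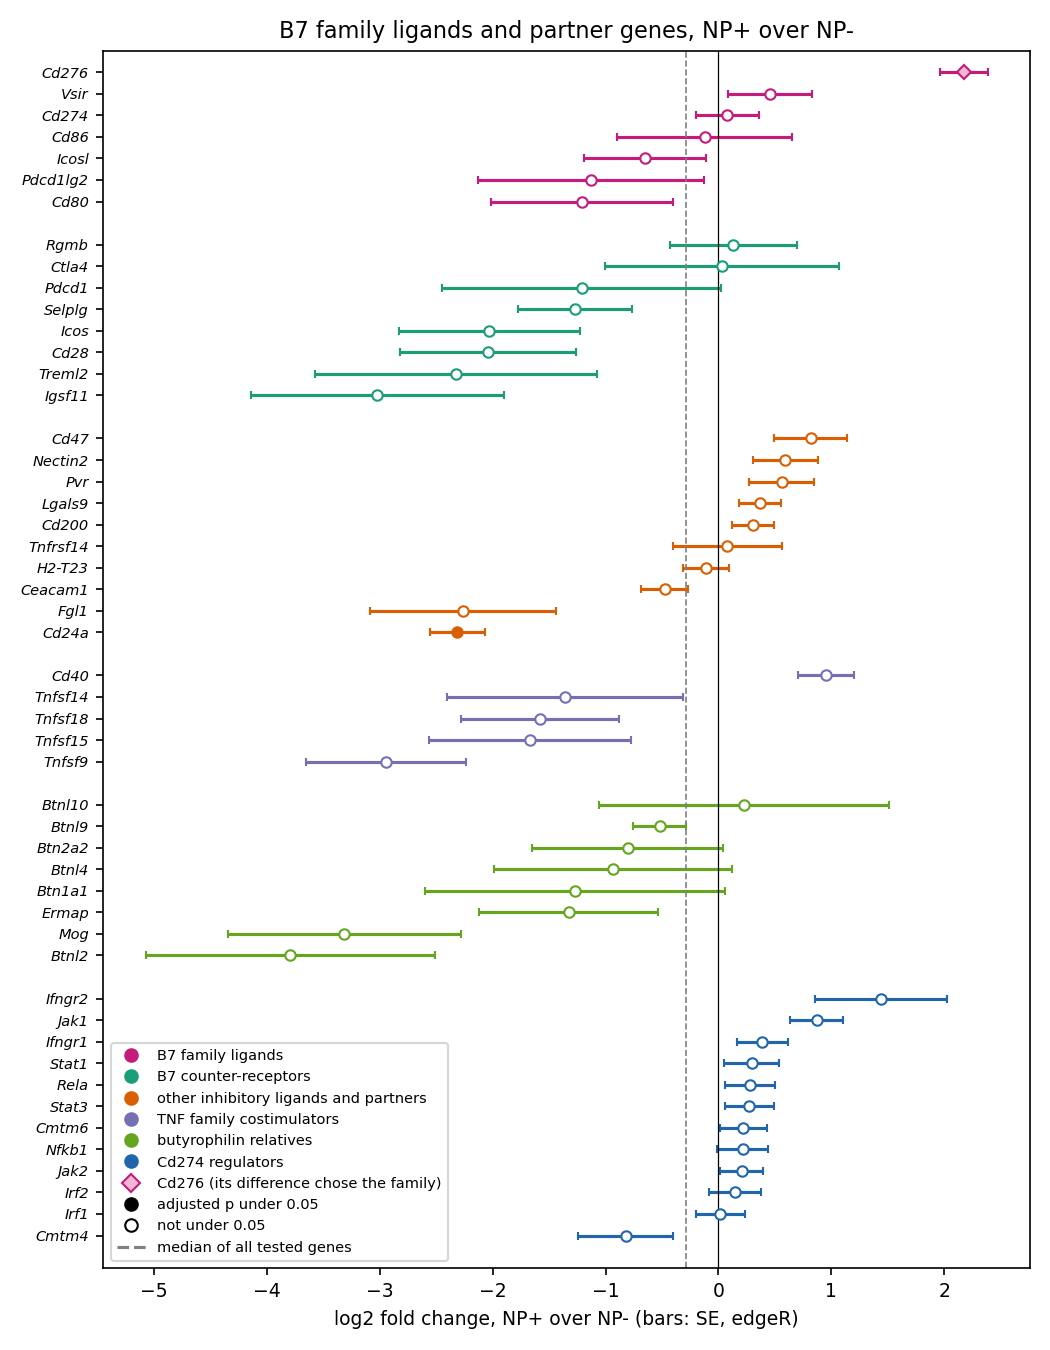
Fitted log2 fold change of NP+ over NP- with its SE (edgeR) for the tested members of the B7 family and of 5 lists of partner genes, with the median of all tested genes as a dashed line. Cd276 (diamond) is at 2.17, Cd24a (filled circle, -2.31) is the one partner gene that passed, and open circles did not pass. Cd24a was already known as a called gene when its list was drawn up.

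The gene of CD31, Pecam1, had 2815 to 3812 CPM in NP+, against 1931 to 2825 CPM in NP- libraries (edgeR adjusted p = 0.211). Ptprc, the CD45 gene, averaged 4.49 ± 0.997 CPM in NP+ and 13.9 ± 10.4 CPM in NP- (SD, n = 3 each, edgeR adjusted p = 0.15), and was highest in the NP- library of MET-107 at 25.7 CPM. The 7 pericyte markers summed to 83.2 to 98.0 CPM in NP+, against 116 to 449 CPM in NP- libraries, with 5 lower at an unadjusted p under 0.05, which 15.4% of all tested genes were. The 6 neutrophil markers summed to 4.2 to 6.32 CPM and 7.23 to 85.6 CPM, and 3 of the 5 tested were lower at that p. All 7 fibroblast markers and all 6 tested epithelial and tumour cell markers had estimates below 0 (59.2% of all tested genes). Of them 6 and 6 were lower at an unadjusted p under 0.05, as were 4 of the 7 lymphatic markers, against 15.4% of all tested genes. No gene of these 5 lists passed by edgeR after adjustment, and DESeq2 called 2 to 4 lower in each (9.81% of all tested genes). The part of these cell types in the values of Cd276 and of the other members was not tested.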

How the data were processed

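Counts per gene were deposited for 6 libraries of SMART-Seq v4 cDNA, read from both ends over 150 bp each, per the labels' protocols. This kit amplifies full-length cDNA and marks neither strand nor molecules. The submitters' processing notes name GRCm38 (mm10), Subread 1.5.2 with featureCounts, STAR 2.5.2b, Trimmomatic 0.036 and DESeq2. Multi-mapping settings: not given in the sources used here. The authors' deposited table gives counts divided by a size factor (a signal), log2 fold changes of NP- over NP+, p-values and adjusted p-values. Of its 156426 signal values 100% gave whole reads within 0.01, and 100% equalled the deposited counts. On those reads the count test called 7 genes.

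Counts were tested with edgeR 4.0.16 (quasi-likelihood, TMM, filterByExpr with a minimum count of 10, no block), in R 4.3.3, on 23989 genes with Benjamini-Hochberg adjustment over all of them and a threshold of 0.05. CPM are relative to the summed tested counts of a library times its TMM factor. The 95% intervals of fold changes come from the fitted SE and cover the spread between libraries. The limit for a count of 0 covers counting error only, since PCR copies are not independent molecules. The labels tie each NP+ library to 1 NP- library of the same tumour. Same-tumour deviations from the group means correlated at 0.24, 0.19 and 0.06, and a blocked fit on tumour is an alternative. DESeq2 1.42.0, limma-voom 3.58.1, other scalings and filters and single left-out libraries were tried too. The members, the partner and marker lists and the rule for named genes (all members, up to 4 genes per partner list with the smallest p, the 5 genes most like Cd276, Pecam1 and Ptprc) were chosen with earlier results of these data known.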

Additional observations from a re-analysis of the deposited data

How the results depend on the processing

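The Cd276 log2 fold change of 2.17 was 2.07 to 2.43 without single libraries, 1.94 by upper quartile, 1.88 by total count, 1.91 with a filter of 5 CPM in 3 libraries, and 1.62 relative to the summed endothelial markers, a scaling chosen after seeing the data. With the tumour as a replicate block it was 2.19. The block changed the call of no member, and the blocked adjusted p of the other 6 tested members was 0.360 to 0.924. None of those 6 was called in any setting. The number of called members, 1 with all libraries and 0 to 1 without single ones, counts Cd276 alone, whose difference chose the family, so nothing is read from it. Over all genes 7 were called, against 15 with the block, 3302 by DESeq2, 18 by limma-voom, 21 by upper quartile, 11 by total count, 1211 without a filter on low counts, 105 at 5 CPM, and 0 to 2320 without single libraries. Of the partner genes 1 was called, against 0 with the block, 8 by DESeq2, 3 without the filter and 0 to 5 without single libraries. That 1 was Cd24a, known as called before its list was drawn up, so nothing is read from it. Cd274 was at -0.18 by upper quartile, -0.21 by total count, -0.19 at 5 CPM and -0.066 to 0.41 without single libraries. Cd86 was at 0.036 without the filter and -0.33 to 0.26 without single libraries. Cd80, Icosl, Pdcd1lg2 and Vsir kept their sign in all settings that could test them. The Cd276 share of the NP+ family sum was 73.3% without division by length, in place of 77.2%. The causes of these shifts were not tested. Depth limits Pdcd1lg2, Cd80, Cd86 and Vtcn1, which had at most 56 counts in a library.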
